A study of Gallus gallus with 27 samples.

Results

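DNA replication and S-phase genes are the 46 genes listed here for their role in copying the genome, from the origin recognition complex to the cyclins that open S phase. They were found by symbol in a table of normalized expression with 14161 rows, and 45 of the 46 symbols had a row. The symbol POLA2 had none and was not analysed here. The list was chosen by function, with earlier results of these data known. By role, 10 genes act in origin recognition and licensing, 8 in helicase activation and at the fork, 6 are polymerase and primase subunits, 6 form the sliding clamp and its loader, and 4 bind single-stranded DNA or process Okazaki fragments. A further 4 supply nucleotides, 4 serve histone supply and chromatin copying, and 3 regulate entry into S phase.

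Replication origins are marked by the origin recognition complex, on which CDC6 and CDT1 load the MCM helicase while cyclin-dependent kinase activity is low. CDC45 and the GINS complex then turn the loaded helicase into an active fork, where polymerases, the PCNA clamp and Okazaki enzymes copy both strands. Many of these genes are targets of E2F transcription factors, and their transcripts are used as a sign of cycling cells. RB proteins hold the E2F factors back until cyclins and their kinases, cyclin E and its kinase among them, release them.

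RNA was sequenced from chicken (Gallus gallus) fibroblast cultures and from samples labelled Fat, in 9 groups of 3 biological replicates. CEF2, labelled Broiler Ross 308, and CEF4, labelled Israeli Baladi, were primary embryonic fibroblasts. CF2 and CF4 were attached fibroblast lines with the same breed labels, and SCF2 and SCF4 were lines that grew in suspension without anchorage, so that number 2 or 4 names a line. The labels state that these lines were immortalized spontaneously, without an added gene, after at least 120 population doublings. They give doubling times of 19 ± 2 h for SCF2 and 20 ± 2 h for SCF4, without saying what the error is. The source name and the breed field of SCF2 and SCF4 name opposite breeds, so the lines are called by number only. DF1 is an established fibroblast line from East Lansing Line 0 chickens and SDF1 is its anchorage-independent form. FAT carried the label Israeli Baladi. The protocol given for CF2, CF4, DF1, SDF1 and FAT describes a transdifferentiation medium with oleic acid and soy lecithin, and the sources used here do not say which of these libraries received it or whether FAT was tissue or cells. Each line number stands for 1 derived line, so the replicates measure the spread within a line and not between lines.

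The normalized values were reads divided by 1 factor per library, called normalized reads here. Reads recovered from them came to 12.26 to 28.75 M per cultured library and 4.613 to 10.44 M per FAT library, so 1 read stood for 0.2943 to 0.7249 normalized reads in cultured libraries and for 1.521 to 3.162 in FAT. DF1 replicate 3 stood apart from its group, with log2 correlations of 0.956 and 0.954 with the other DF1 libraries against 0.994 between them. It correlated more closely with each CF2 library, at 0.966, and also with each SCF2 (0.962 to 0.964), CF4 (0.960 to 0.961) and SDF1 library (0.958 to 0.959). The cause was not tested. FAT replicate 3 stood apart as well, at 0.915 and 0.932 against 0.956, and counts of the 45 genes in DF1 and FAT are given with and without these libraries. All 12 fibroblast markers were above 0 in every library, also in FAT. The CEF and SCF libraries formed one deposited set of 12 and the others a second set of 15, so in CF against CEF and in SCF against CF the set and the group cannot be told apart. Scaling mattered for counts over all genes. Quantile normalization in place of the authors' scaling raised the share of called genes that were higher in SCF2 (44.5% to 59.5%), SCF4 (47.4% to 57.5%), CF2 (41.0% to 58.7%) and CF4 (44.4% to 57.4%), each set against its primary culture. It lowered that share in SDF1 set against DF1 (57.4% to 46.6%) and in FAT set against CF4 (61.2% to 43.5%).

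Summed over the list, replication and S-phase genes were lowest in FAT, next lowest in the primary cultures and highest in the immortalized lines. Together the 45 genes took 0.2071% to 0.2276% of all normalized reads in the 6 primary libraries. In the CF and SCF lines that share was 0.489% to 0.6583%, in DF1 0.5165% to 0.5329%, in SDF1 0.4125% to 0.416% and in FAT 0.05436% to 0.0814%. For 23 of the 45 genes every primary library was below every library of the immortalized lines, DF1 and SDF1 included. Of 13645 rows with signal, 7.5% had that order. The 23 included CDC6, CDT1, E2F1, TYMS, UHRF1 and the helicase genes MCM3, MCM4, MCM5 and MCM6. The largest spread between cultured groups was seen for CCNE1, TYMS and CDC6, whose highest group mean was 9.85, 9.48 and 7.52 times the lowest. CEF2 had the lowest mean of the cultured groups for 26 of the 45 genes, and CEF4 and SDF1 for 8 each, while SCF4 had the highest for 12 and SCF2 for 11. MCM8, CDC45 and RPA2 had the smallest spread, with ratios of 1.53, 1.58 and 1.60. In 37 of the 45 genes every FAT library was below every cultured library, an order that 12% of rows had. The 8 exceptions were CCNE1, CHAF1A, POLA1, POLD3, PRIM1, RFC1, RFC5 and RPA2.

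**Figure D1:**
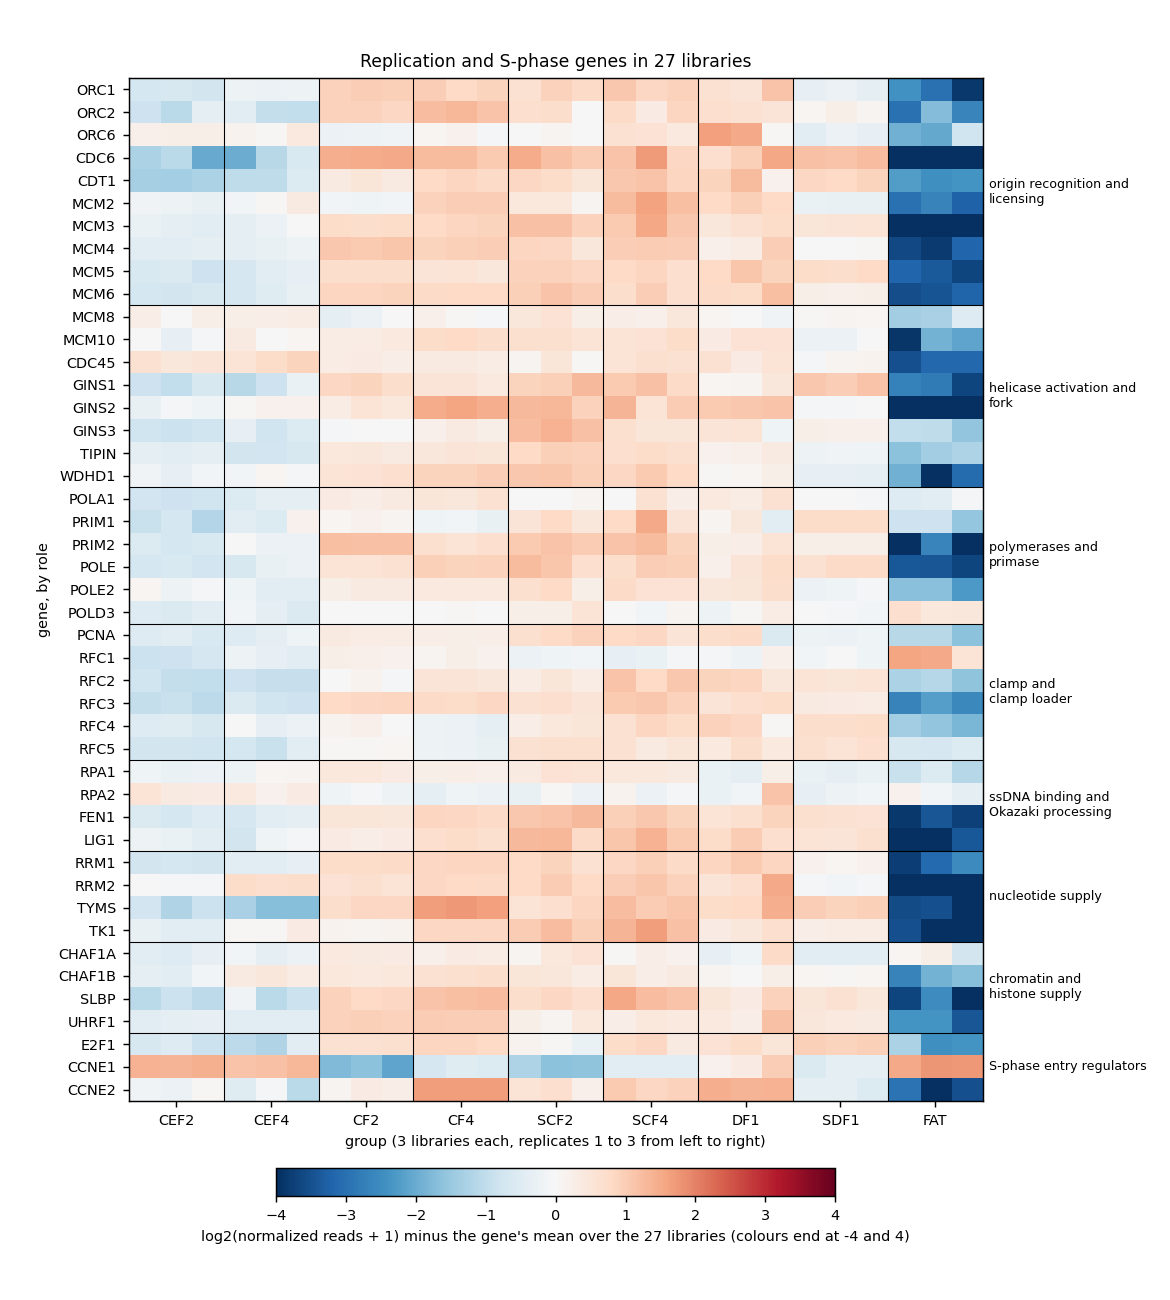
Levels of the 45 genes in 27 libraries, as log2(normalized reads + 1) minus the mean of the gene over all libraries, with genes in rows by role and libraries in columns by group. FAT columns are blue for most genes, primary columns (CEF2, CEF4) are mostly pale blue and immortalized columns mostly red, while the CCNE1 row runs the other way, with its highest libraries in CEF2, CEF4 and FAT.

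The comparisons of suspension and attached lines with the primary culture of the same number asked how replication genes changed between primary and immortalized growth. Most rose in both kinds of line, while CCNE1 and RPA2 fell in all 4 comparisons. Calls are at adjusted p under 0.05 in limma fits over all rows, and changes are differences of mean log2(normalized reads + 1) with their standard error (SE). In SCF2 against CEF2, 40 of the 45 genes were called higher and 3 lower, where 29.8% and 37.1% of the 13001 rows tested were, and their median change was 1.27 against -0.08 over all rows. For SCF4 set against CEF4, calls were 39 higher and 2 lower, where 30.5% and 33.8% of rows were, with medians of 1.20 and -0.04. In CF2 against CEF2, 38 were called higher and 4 lower (29.6% and 42.6% of rows), with medians of 0.85 and -0.18. In CF4 against CEF4, 37 were called higher and 3 lower (31.2% and 39.0% of rows), with medians of 0.95 and -0.11. Relative to the median of all rows the members stood 1.35, 1.25, 1.02 and 1.05 higher in that order, and 1.04, 1.04, 0.76 and 0.86 higher after quantile normalization. SCF2 and CF2 were compared with the same CEF2 libraries, and SCF4 and CF4 with the same CEF4 libraries. Without CEF4 replicate 1, CEF4 replicate 3, SCF4 replicate 2 or SCF4 replicate 3, 1 gene instead of 2 was called lower in SCF4, and with quantile normalization 2 instead of 4 in CF2 against CEF2.

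Origin recognition and licensing genes rose as a group: of 10, 9 were called higher in SCF2, 10 in SCF4, 8 in CF2 and 9 in CF4. CDC6, the ATPase that loads the MCM helicase at origins, had the largest rise of the 45 genes in SCF2 and in CF2. Its normalized reads were 126, 143 and 75.3 in CEF2, 845, 862 and 876 in CF2 and 858, 684 and 612 in SCF2. In line 4 they were 75.9, 141 and 199 in CEF4, 734, 731 and 633 in CF4 and 669.8, 984 and 544 in SCF4. Every primary library lay below every library of both lines, although the primary libraries themselves spread widely. The change was 2.67 ± 0.32 (SE, adjusted p = 4.71e-06) in SCF2 and 2.46 ± 0.32 (SE, adjusted p = 1.16e-05) in SCF4. CDC6 rose by 2.95 ± 0.28 in CF2 and by 2.43 ± 0.28 in CF4, with adjusted p = 2.70e-08 and 3.83e-07. CDT1, its partner in helicase loading, was at 236, 233 and 250.2 in CEF2 and 1055, 998 and 843 in SCF2, and at 294, 292 and 406 in CEF4 and 1252, 1328 and 1080.2 in SCF4. The groups did not overlap, and CDT1 rose by 2.00 ± 0.14 and 1.89 ± 0.14 (adjusted p = 1.23e-08 and 2.31e-08).

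Of the 5 listed subunits of the helicase ring, MCM2 had the smallest changes in line 2. It was at 758, 729 and 675 in CEF2, 774, 735 and 779 in CF2 and 1104, 1119 and 890.4 in SCF2. Line 4 had it at 776, 861 and 1058 in CEF4, 1572, 1662 and 1639.7 in CF4 and 2006, 2521 and 1928 in SCF4. CF2 overlapped CEF2 and MCM2 was not called there (change 0.08 ± 0.12, adjusted p = 0.536), while it rose by 0.52 ± 0.14 in SCF2, 1.26 ± 0.14 in SCF4 and 0.87 ± 0.12 in CF4. MCM3, MCM4, MCM5 and MCM6 rose in all 4 comparisons, by 1.73 for MCM6 in SCF2 and 1.27 in SCF4. ORC1 and ORC2, subunits of the origin recognition complex, also rose in all 4, by 1.46 and 1.15 for ORC1 in the suspension lines and by 1.63 and 2.02 for ORC2 in the attached lines. ORC6, a further subunit of that complex, was not called in SCF2 (-0.17 ± 0.12, adjusted p = 0.236), was lower in CF2 (-0.41 ± 0.10, adjusted p = 0.00179) and was not called in CF4 (-0.12 ± 0.10). Its fall in CF2 was not called after quantile normalization, at -0.10. In SCF4 its libraries overlapped those of CEF4, and its call as higher (0.32 ± 0.12, adjusted p = 0.0346) was lost without CEF4 replicate 1, CEF4 replicate 2, SCF4 replicate 1 or SCF4 replicate 2, at 0.29, 0.25, 0.27 and 0.30.

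Among the 8 genes of helicase activation and the fork, 6 were called higher in each of the 4 comparisons. The exceptions each time were among CDC45, which joins the MCM ring to form the active helicase, and MCM8, a helicase paralog with a role in repair. MCM8 was called lower in CF2, where its mean of 124 normalized reads was the lowest of the cultured groups. It was not called in SCF2, SCF4 or CF4 against primary culture, and was called higher in SCF2 against CF2. CDC45 was at 401, 357 and 375 in CEF2, 321, 328 and 313 in CF2 and 280.4, 369 and 272 in SCF2. Line 4 libraries had it at 384, 432 and 482, 335, 338 and 323 and 385, 407 and 404 in the same order. Its levels in the lines were never above the range of the primary libraries. It was called lower in CF4, with a change of -0.38 ± 0.11 (SE, adjusted p = 0.00419), and, with overlapping libraries, in SCF2, with -0.31 ± 0.13 (SE, adjusted p = 0.0444). The call in SCF2 was lost after quantile normalization (-0.29), with only the compared groups in the fit, and without CEF2 replicate 1 (-0.27), CEF2 replicate 2 (-0.35), CEF2 replicate 3 (-0.31), SCF2 replicate 1 (-0.25) or SCF2 replicate 3 (-0.23). GINS1 and GINS3, subunits of the complex that joins CDC45 on the helicase, had the largest rises of these 8 genes in SCF2. GINS3 was at 286, 275 and 285 in CEF2 and 1168, 1311 and 1121 in SCF2, a rise of 2.08 ± 0.12 (SE, adjusted p = 1.55e-09), and at 397, 285 and 342 in CEF4 and 774, 699.6 and 700.2 in SCF4, a rise of 1.10 ± 0.12 (SE, adjusted p = 1.64e-06). GINS1 rose by 1.86 and 1.73 in the suspension lines and by 1.63 and 1.21 in the attached lines. TIPIN, which protects stalled forks, and WDHD1, which couples polymerase alpha to the helicase, rose in all 4 comparisons, with changes of 0.82 to 1.41 for TIPIN and of 0.80 to 1.25 for WDHD1.

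All 6 polymerase and primase genes were called higher in SCF2, SCF4 and CF2, and 5 of 6 in CF4. POLA1, the catalytic subunit of polymerase alpha, was at 445, 430.3 and 439 in CEF2 and 762, 770.3 and 817 in SCF2, and at 517, 584 and 595 in CEF4 and 773, 1152 and 915 in SCF4. It rose by 0.84 ± 0.13 and 0.73 ± 0.13, and by 1.11 and 0.95 in CF2 and CF4. POLE, the catalytic subunit of the leading-strand polymerase, rose by 1.71 in SCF2 and 1.27 in SCF4. PRIM2, the large primase subunit, was at 291, 256 and 277 in CEF2 and 963, 946 and 952 in CF2, with no overlap, and rose by 1.79 ± 0.09 (SE, adjusted p = 4.72e-12). The exception in CF4 was PRIM1, the small primase subunit, at 456, 419 and 691 in CEF4 and 546, 568 and 504 in CF4 (0.08 ± 0.20, adjusted p = 0.746).

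The sliding clamp and its loader rose too, with 6 of 6 genes called higher in SCF2 and CF2 and 5 of 6 in SCF4 and CF4. PCNA, the clamp that tethers polymerases to DNA, was at 1446, 1506 and 1369 in CEF2, 2643, 2566 and 2556 in CF2 and 3228, 3627 and 3898 in SCF2. In line 4 it was at 1449, 1577 and 1842 in CEF4, 2509, 2437 and 2505 in CF4 and 3596, 3704 and 2956 in SCF4. All libraries of the lines were above those of their primary culture. PCNA rose by 1.31 ± 0.12 (SE, adjusted p = 2.00e-07) in SCF2, by 1.07 ± 0.12 (SE, adjusted p = 1.73e-06) in SCF4, and by 0.85 and 0.62 in CF2 and CF4. Of the clamp loader subunits, RFC2 rose by 1.89 ± 0.11 (SE, adjusted p = 2.64e-09) in SCF4, from 340.5, 319 and 318 to 1337, 1031 and 1279, and RFC3 by 1.80 ± 0.08 (SE, adjusted p = 3.67e-13) in CF2, from 271, 281 and 254 to 919.5, 929 and 955. RFC1, the large loader subunit, was not called in SCF4 (0.10 ± 0.10, adjusted p = 0.444), and RFC4 was not called in CF4 (-0.09 ± 0.10, adjusted p = 0.448).

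RPA2 parted from its partner RPA1, the large subunit of the complex that coats single-stranded DNA. RPA2, the middle subunit, was at 440.4, 388 and 372 in CEF2, 263, 281 and 259.7 in CF2 and 242, 306 and 252 in SCF2. For line 4 the values were 394, 337 and 377 in CEF4, 231, 266 and 253 in CF4 and 329, 254 and 288 in SCF4. In every one of the 4 comparisons its primary libraries were above those of the line. The mean of CEF2 was 1.5 times that of SCF2 (log2 change -0.59 ± 0.13, SE, adjusted p = 0.00117), and the changes in CF2 and CF4 were -0.57 ± 0.11 and -0.56 ± 0.11 (adjusted p = 0.000172 and 0.000231). In SCF4 the change was -0.35 ± 0.13 (SE, adjusted p = 0.0291), and the call was lost without CEF4 replicate 1 (-0.30), CEF4 replicate 3 (-0.34), SCF4 replicate 2 (-0.26) or SCF4 replicate 3 (-0.35). RPA1 rose in all 4 comparisons, by 0.72 in SCF2 and 0.41 in SCF4, and by 0.24 in CF4, where the call was lost without CEF4 replicate 1 (0.14). FEN1, the flap nuclease that trims Okazaki fragments, rose from 684, 631 and 715 to 2180.4, 2287 and 2528 in SCF2, by 1.78 ± 0.10 (SE, adjusted p = 2.06e-09). LIG1, the ligase that seals them, rose by 1.43 ± 0.18 in SCF2 and 1.51 ± 0.18 in SCF4.

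All 4 nucleotide supply genes were called higher in SCF2, SCF4 and CF2, and 3 of 4 in CF4. TYMS, the thymidylate synthase that makes dTMP, had the largest change of any of the 45 genes in line 4. It was at 112, 84.6 and 83.9 in CEF4, 877, 919.8 and 862 in CF4 and 649.5, 567 and 602 in SCF4, and at 164, 119.8 and 153 in CEF2, 452, 492 and 497 in CF2 and 402, 441 and 506 in SCF2. The mean was 6.49 times that of CEF4 in SCF4 and 9.48 times in CF4, with log2 changes of 2.69 ± 0.15 (SE, adjusted p = 1.38e-09) and 3.24 ± 0.13 (SE, adjusted p = 6.95e-14). In line 2 the changes were 1.63 ± 0.15 in SCF2 and 1.73 ± 0.13 in CF2. TK1, the cytosolic thymidine kinase of the salvage route, was at 1055, 959.8 and 971 in CEF2 and 2620.4, 3089 and 2558 in SCF2, and at 1362, 1343 and 1656 in CEF4 and 3319.5, 4153 and 2915 in SCF4. It rose by 1.46 ± 0.13 and 1.24 ± 0.13 in the suspension lines and by less, 0.52 ± 0.11 and 0.68 ± 0.11, in the attached lines. RRM2, the small subunit of ribonucleotide reductase that limits dNTP supply in S phase, was at 1445, 1339.8 and 1385 in CEF2 and 2444, 2898 and 2443 in SCF2 and rose by 0.90 ± 0.09. In CEF4 it was already at 2344, 2277 and 2327, against 2831, 3035 and 2686 in SCF4 and 2513, 2440.2 and 2425 in CF4, with changes of 0.30 ± 0.09 (SE, adjusted p = 0.0108) and 0.09 ± 0.07 (SE, adjusted p = 0.303). RRM1, the large subunit, rose in all 4 comparisons, by 1.50 in SCF2 and 1.26 in SCF4.

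Of the 4 genes of histone supply and chromatin copying, 4 were called higher in SCF2, CF2 and CF4 and 3 in SCF4. SLBP, which binds the stem-loop of histone mRNAs, rose from 156, 81.3 and 94.1 in CEF4 to 509, 409 and 382 in SCF4, by 2.01 ± 0.20 (SE, adjusted p = 7.11e-07), and by 1.84 ± 0.17 in CF2. UHRF1, which recruits the maintenance DNA methyltransferase to new strands, was at 1279, 1305 and 1373 in CEF2, 3216, 3328 and 3233 in CF2 and 1993, 1851 and 2286 in SCF2. For line 4 its values were 1255, 1251 and 1246, 3486, 3405 and 3418 and 2061, 2270.5 and 2248 in the same order. The attached libraries were highest, the suspension libraries between and the primary libraries lowest in both lines. CHAF1A, the large subunit of chromatin assembly factor 1, rose by 0.79 in SCF2 and 0.40 in SCF4, where the call was lost without CEF4 replicate 2 (0.32). CHAF1B, its middle subunit, rose by 0.72 in SCF2 and was not called in SCF4 (0.00 ± 0.11, adjusted p = 0.998).

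The 3 regulators of S-phase entry moved in opposite directions. CCNE1, cyclin E1, fell in every comparison of a line with its primary culture, while E2F1, the activator of S-phase genes, rose. CCNE1 was at 172, 169 and 178 in CEF2, 18.3, 20.1 and 14.3 in CF2 and 27.4, 20.5 and 21.0 in SCF2. In line 4 it was at 145, 149 and 167 in CEF4, 40.9, 46.9 and 44.7 in CF4 and 48.1, 48.6 and 47.1 in SCF4. Every library of the lines was below every primary library, and the mean of CEF2 was 9.85 times that of CF2 and 7.55 times that of SCF2. The changes were -2.87 ± 0.15 (SE, adjusted p = 8.78e-10) in SCF2 and -1.66 ± 0.15 (SE, adjusted p = 3.63e-07) in SCF4. In the attached lines they were -3.24 ± 0.15 (SE, adjusted p = 8.58e-13) in CF2 and -1.77 ± 0.15 (SE, adjusted p = 5.26e-09) in CF4. E2F1 was at 545, 589 and 459.9 in CEF2, 1287, 1285 and 1311 in CF2 and 919, 874 and 706 in SCF2, and rose by 0.65 ± 0.19 in SCF2 and 1.29 ± 0.16 in CF2. In line 4 it was at 409, 365 and 633, 1537, 1531 and 1455 and 1403, 1494 and 1082, and rose by 1.53 ± 0.19 in SCF4 and 1.72 ± 0.16 in CF4.

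CCNE2, cyclin E2, which shares the kinase partner of cyclin E1, went against CCNE1 in line 4. It was at 57.5, 75.2 and 37.7 in CEF4, 260.0, 255 and 257 in CF4 and 166, 143 and 154 in SCF4, and rose by 2.21 ± 0.18 (SE, adjusted p = 4.12e-09) in CF4 and 1.48 ± 0.22 (SE, adjusted p = 3.92e-05) in SCF4. In line 2 it was at 73.0, 68.5 and 83.4 in CEF2, 87.3, 99.9 and 95.8 in CF2 and 116, 127 and 91.5 in SCF2, without overlap of the lines with CEF2 but with small differences. Its call in SCF2 (0.56 ± 0.22, SE, adjusted p = 0.0367) was lost without CEF2 replicate 1 (0.54), CEF2 replicate 2 (0.50), SCF2 replicate 1 (0.52) or SCF2 replicate 2 (0.46). In CF2 it was not called (0.33 ± 0.18, SE, adjusted p = 0.116), but it was after quantile normalization, at 1.26.

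**Figure D2:**
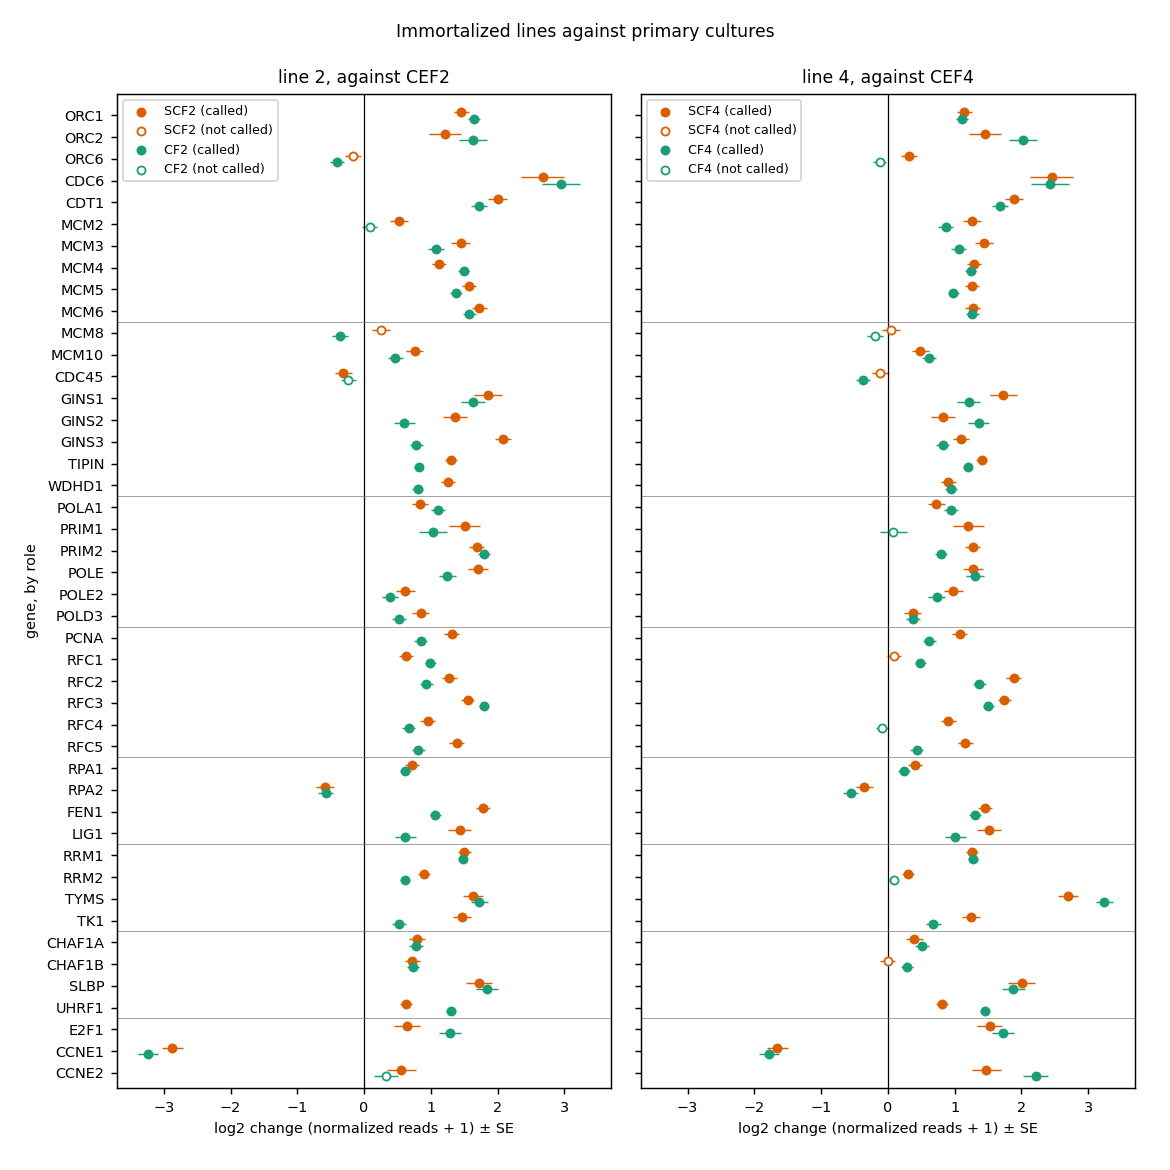
Changes of the 45 genes in suspension lines (SCF, orange) and attached lines (CF, green) against the primary culture of the same number, line 2 on the left and line 4 on the right, as the difference of mean log2(normalized reads + 1) with bars of 1 SE, 3 libraries per group. Filled points are called at an adjusted p under 0.05. Most points lie to the right of 0, and CCNE1 lies farthest to the left, at -2.87 and -3.24 in line 2 and at -1.66 and -1.77 in line 4.

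**Figure D3:**
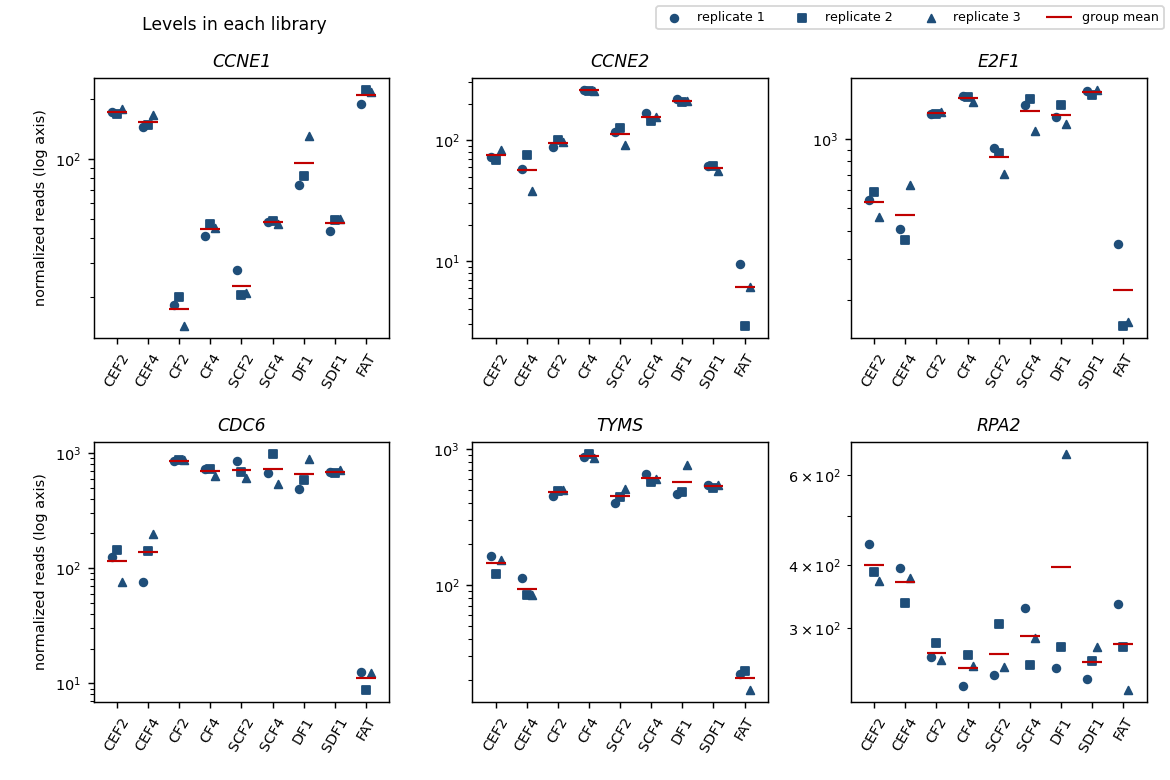
Normalized reads (log axis) of 6 genes in each of the 27 libraries, with replicates 1, 2 and 3 as circles, squares and triangles and group means as red lines. CCNE1 is highest in CEF2, CEF4 and FAT, CDC6 and TYMS are lower in every primary library than in every immortalized one, and DF1 replicate 3 lies apart from the other DF1 libraries for RPA2 and CCNE1.

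Replication genes outside the list were mostly called higher as well. Over all rows, the shares called higher and lower were 29.8% and 37.1% in SCF2 and 30.5% and 33.8% in SCF4. In the attached lines these shares were 29.6% and 42.6% in CF2 and 31.2% and 39.0% in CF4. Of 25 other replication genes with a test, 22 were called higher and 1 lower in SCF2, 19 and 1 in SCF4, 20 and 1 in CF2 and 18 and 2 in CF4. DSCC1, a subunit of an alternative clamp loader, rose by 2.61 in SCF2 and 2.20 in SCF4, and TICRR, which helps to fire origins, by 1.59 and 1.53. Among 17 other nucleotide genes, 9 were called higher and 4 lower in SCF2 and 8 and 2 in SCF4. DUT, which removes dUTP, rose by 2.03 in SCF2 and 2.11 in SCF4. Of 12 other chromatin assembly genes, 9 were called higher and 1 lower in both suspension lines, with HAT1, a histone acetyltransferase for new histones, up by 1.59 and 1.26. Of 24 genes of the E2F and RB network, 16 were called higher and 6 lower in SCF2 and 13 and 7 in SCF4. CDKN1A, the inhibitor p21 of the cyclin E kinase, was at 1662, 1944 and 1529 in CEF2 and 29.1, 36.2 and 21.0 in SCF2, and its change of -5.87 ± 0.21 was the largest of that network in SCF2 against CEF2. In CF2 it was at 3.16, 2.77 and 4.09, a change of -8.63 ± 0.26 from CEF2. In line 4 it was at 1902, 1963 and 2832 in CEF4, 3.86, 7.01 and 9.42 in CF4 and 36.1, 32.6 and 24.4 in SCF4. Of 13 genes that limit origin firing or turn over its factors, 9 were called higher and 2 lower in each suspension line, and CHEK1, the checkpoint kinase of stalled forks, rose by 2.29 and 1.92. Of 14 mitosis markers, 13 were called higher in SCF2 and 11 in SCF4, with none lower in either. MKI67, a marker of cycling cells, was at 751, 757 and 872 in CEF2 and 2206, 2052 and 2452 in SCF2, a rise of 1.49 ± 0.16, but at 1452, 1376 and 1038 in CEF4 and 1357, 1121 and 1723 in SCF4, where it was not called (0.11 ± 0.16, adjusted p = 0.552).

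Markers of other cell types and of fibroblasts moved with the step from primary culture to line. The sum of 15 skeletal muscle markers was 17510 to 19350 normalized reads in CEF2, where none was at 0, against 757.6 to 782.8 in CF2 and 131.2 to 152.4 in SCF2, where 9 to 12 and 10 to 13 of the 15 were at 0. MYH15, named after its values were seen, made up nearly all of the CF2 and SCF2 sums, since the other 14 markers summed to 1.04 to 2.73 and 2.14 to 4.80. In line 4 the sum was 1092 to 1133 in CEF4, with 6 to 11 at 0, 151.7 to 199.8 in CF4 and 105.8 to 161.8 in SCF4. Nearly all of the CF4 and SCF4 sums was MYH15 as well, since the other markers summed to 2.21 to 2.94 and 2.41 to 5.80. The sum of 10 cartilage markers was 270400 to 399300 in CEF4, with none at 0, and 24.06 to 40.6 in SCF4 and 17.36 to 20.91 in CF4, with 5 to 6 and 2 to 5 at 0. For CEF2 it was 7746 to 8598, against 13.29 to 18.33 in CF2 and 36.18 to 46.23 in SCF2. The 12 fibroblast markers summed to 724400 to 807800 in CEF2, 136300 to 137300 in CF2 and 123900 to 149500 in SCF2, and to 1039000 to 1379000 in CEF4, 62510 to 65460 in CF4 and 77090 to 101900 in SCF4. Of these 12, 7 were called lower and 1 higher in SCF2 against CEF2, and 10 lower and none higher in SCF4 against CEF4. Over all rows, 37.1% were called lower in SCF2 and 33.8% in SCF4. Fewer cells of a type and less RNA per cell cannot be told apart in these bulk libraries, and the part of these markers in the changes of replication genes was not tested.

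The authors' deposited table of suspension lines against primary cultures gave 28 of the 45 genes for each line, after symbols that occurred more than once in it were left out. In the authors' deposited table, 26 of these were called higher and 2 lower in SCF2, and 25 higher and 1 lower in SCF4. Shares called over all genes of that table were not computed, so the counts cannot be set against them. The table's sign was read as primary minus suspension. This rested on its correlation of -0.979 and -0.978 with the changes given here, over 5437 and 5440 genes. All 28 had the same sign as in the limma fit in both lines, as had 97.5% and 95.7% of the matched genes. The sign of that table was read from these same changes, so this is no separate support. Called by one source only were 1 gene in line 2 and 2 genes in line 4. They were ORC6 in line 2 and POLD3 and RRM2 in line 4, named after their values were seen. In the authors' deposited table the suspension minus primary change of TYMS was 1.53 in line 2 and 2.70 in line 4, and that of RPA2 was -0.70 and -0.45.

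An interaction term, the SCF4 change minus the SCF2 change, tested whether lines 2 and 4 differed in this step. It was called positive for 7 of the 45 genes and negative for 5, where 22.0% and 17.3% of rows were, so the 45 genes had smaller shares than all rows in both directions. All 3 regulators of S-phase entry were among the positive ones: CCNE1 fell less in line 4 (difference 1.22 ± 0.22, SE, adjusted p = 0.000595), and the rise of E2F1 was larger (0.88 ± 0.27, SE, adjusted p = 0.0188), although not called without CEF4 replicate 2 (0.72). The difference for CCNE2 was 0.92 ± 0.31 (SE, adjusted p = 0.0309), a call lost without CEF2 replicate 1 (0.93), CEF2 replicate 3 (0.84), CEF4 replicate 3 (0.66), SCF2 replicate 3 (0.78), SCF4 replicate 1 (0.86) or SCF4 replicate 3 (0.92). TYMS rose more in line 4 by 1.07 ± 0.21 (SE, adjusted p = 0.00133), MCM2 by 0.74 ± 0.19 (SE, adjusted p = 0.00804) and RFC2 by 0.61 ± 0.16 (SE, adjusted p = 0.00731). GINS3 rose more in line 2, with a difference of -0.99 ± 0.17 (SE, adjusted p = 0.000375), and CHAF1B as well, with -0.72 ± 0.16 (SE, adjusted p = 0.0026). The term includes any difference between the primary cultures themselves. CHAF1B was already higher in CEF4 than in CEF2 and TYMS was lower there, as given below. The median difference over the members was -0.21 against 0.05 over all rows. Without CEF4 replicate 1, 8 genes instead of 5 were called negative, where 17.2% of rows were. The smaller negative share of the 45 genes did not hold there.

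The comparison of the primary cultures showed a minority of these genes higher in CEF4. In CEF4 against CEF2, 11 of the 45 were called higher and 2 lower, where 16.7% and 22.4% of rows were, with a median change of 0.19 against -0.03 over all rows. The largest was RRM2, at 1445, 1339.8 and 1385 in CEF2 and 2344, 2277 and 2327 in CEF4, without overlap and higher in CEF4 by 0.74 ± 0.09 (SE, adjusted p = 1.90e-05). CHAF1B was higher in CEF4 by 0.69 ± 0.11 (SE, adjusted p = 0.00022), with 287, 271 and 341 in CEF2 and 475, 512 and 458 in CEF4. TK1 was higher by 0.54 ± 0.13 (SE, adjusted p = 0.00471) and ORC1 by 0.48 ± 0.11 (SE, adjusted p = 0.00389). TYMS and TIPIN went the other way, with -0.63 ± 0.15 (SE, adjusted p = 0.00412) and -0.31 ± 0.09 (SE, adjusted p = 0.0112). PRIM1 was called higher in CEF4 by 0.65 ± 0.23 (SE, adjusted p = 0.0403), a call lost without CEF2 replicate 1 (0.66), CEF2 replicate 3 (0.53) or CEF4 replicate 3 (0.43). Without CEF4 replicate 3, 7 of the 45 genes instead of 11 were called higher, where 15.3% of rows were. With all 27 libraries in one fit it was 5, where 10.9% of rows were. Both counts were close to the share over all rows. Breed cannot be told apart from culture in CEF4 and CEF2.

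Suspension and attached lines of the same number were compared to ask how growth without anchorage differed from attached growth, across the deposited sets. Some clamp, fork and nucleotide genes were higher in suspension and UHRF1 was lower. In line 4 the count of genes called higher was close to the share over all rows in several fits. In SCF2 against CF2, 18 of the 45 genes were called higher and 6 lower, where 25.2% and 18.3% of rows were, with a median change of 0.23 against 0.03 over all rows. In SCF4 against CF4, 18 were called higher and 7 lower, where 27.3% and 18.4% of rows were, with medians of 0.16 and 0.06. Without SCF4 replicate 2, 11 of the 45 were called higher, a share no larger than the 25.5% of all rows. These counts depended on the fit. With edgeR on recovered reads 12 were called higher and 8 lower in each line, where 23.1% and 24.6% of rows were in line 2 and 24.8% and 23.3% in line 4. DESeq2 called 15 and 7 in line 2, where 23.796% and 21.710% of rows were. In line 4 it called 12 and 8, where 23.998% and 22.897% of rows were. With all 27 libraries in one fit the counts were 10 and 2 in line 2 and 6 and 4 in line 4, against 14.9% and 9.83% and 14.5% and 9.75% of rows. Of the 45, 11 were called higher in both lines and RFC1 and UHRF1 were lower in both. The share of all rows called in both lines was not computed, so the 11 cannot be set against it. GINS2 and RFC3 were called in opposite directions. GINS2 was higher in SCF2 (0.76) and lower in SCF4 (-0.53), the latter not called without SCF4 replicate 2 (-0.31). CDC6, CDT1, ORC1, MCM6, RRM1 and SLBP were among the 11 genes called in neither.

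TK1 was higher in suspension in both lines, by 0.94 ± 0.11 (SE, adjusted p = 1.63e-06) in line 2 and 0.56 ± 0.11 (SE, adjusted p = 0.00044) in line 4. In CF2 it was at 1448, 1409 and 1437 against the SCF2 values given above, and in CF4 at 2341, 2307 and 2309, with no overlap in either line. UHRF1 was lower in suspension, with changes of -0.68 ± 0.07 (SE, adjusted p = 5.38e-07) and -0.65 ± 0.07 (SE, adjusted p = 1.48e-06). PCNA was higher by 0.47 and 0.45, and RFC5, a clamp loader subunit, by 0.58 and 0.73. In line 2 the largest difference was GINS3, higher in SCF2 by 1.30 ± 0.10 (SE, adjusted p = 7.78e-09), with 481, 489.6 and 489 in CF2. LIG1 and FEN1 were also higher in SCF2, by 0.81 and 0.72, while E2F1 was lower (-0.64 ± 0.16, SE, adjusted p = 0.00364). RFC1 and MCM4 were lower in SCF2, with changes of -0.37 and -0.36, neither called with all 27 libraries in one fit. In line 4 PRIM1 was higher in SCF4, at 1057, 1742 and 879.9 against 546, 568 and 504 in CF4 (1.12 ± 0.20, SE, adjusted p = 0.000211), and RFC4 was higher by 0.99 ± 0.10 (SE, adjusted p = 3.40e-07). CCNE2 and TYMS were lower in SCF4 than in CF4, with changes of -0.74 ± 0.18 (SE, adjusted p = 0.00315) and -0.55 ± 0.13 (SE, adjusted p = 0.00162). ORC2 was lower there, with a change of -0.57 ± 0.20 (SE, adjusted p = 0.0304), a call lost without CF4 replicate 1 (-0.57), CF4 replicate 2 (-0.53), CF4 replicate 3 (-0.61) or SCF4 replicate 2 (-0.41).

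SDF1 was compared with DF1 to ask how replication genes changed when an established attached line grew without anchorage. Most genes called were lower in SDF1: 18 of 45, with 3 higher, where 20.4% and 27.5% of the 11834 rows tested were, and the median change was -0.21 against 0.08 over all rows. Without DF1 replicate 3, 27 were called lower and 6 higher, with a median of -0.24, and the shares over all rows rose as well, to 34.1% and 39.8%. Both groups came from one deposited set. Of 10 licensing genes, 6 were called lower and none higher, and 8 and 1 without DF1 replicate 3. CCNE2 had the largest fall, from 219, 206 and 209.5 in DF1 to 61.5, 60.8 and 55.1 in SDF1, a change of -1.82 ± 0.08 (SE, adjusted p = 1.38e-07), and -1.83 without that library. CCNE1 was at 73.8, 82.0 and 130.5 in DF1 and 43.3, 49.4 and 49.5 in SDF1, with a change of -0.95 ± 0.21 (SE, adjusted p = 0.00374), and -0.71 without DF1 replicate 3. E2F1 was at 1252, 1400.0 and 1167 in DF1 and 1620.4, 1553 and 1637 in SDF1 and rose by 0.34 ± 0.07 (SE, adjusted p = 0.00247), so both cyclins E were lower and E2F1 was higher, a call of E2F1 that was lost with all 27 libraries in one fit.

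MCM2 fell from 1438, 1612 and 1432 in DF1 to 698, 673 and 683 in SDF1, a change of -1.12 ± 0.06 (SE, adjusted p = 4.45e-07). GINS2 fell from 279, 287 and 297 to 127, 128 and 137, a change of -1.13 ± 0.08 (SE, adjusted p = 1.80e-06). DF1 and SDF1 libraries did not overlap for either gene, and the values without DF1 replicate 3 were -1.15 and -1.11. ORC1 fell as well, with a change of -1.07 ± 0.14 (SE, adjusted p = 0.000153), and -0.87 without that library. RRM2 was at 2048, 2261 and 4084 in DF1, with replicate 3 the highest, and at 1349, 1322 and 1331 in SDF1. Its DF1 mean was 2.1 times that of SDF1 (adjusted p = 0.0022), and its log2 change without replicate 3 was -0.69. RRM1, CDC45 and POLA1 were lower too. The change of RRM1 was -0.79 ± 0.06 (SE, adjusted p = 4.79e-06). CDC45 was at 401, 329.6 and 381 in DF1 and 249, 283 and 289 in SDF1, a change of -0.43 ± 0.09 (SE, adjusted p = 0.00205). POLA1 was at 989.6, 931 and 1155 and 770.0, 775 and 739.7, a change of -0.42 ± 0.08 (SE, adjusted p = 0.00156), and the libraries overlapped for neither. ORC6 was at 459, 427 and 151 in DF1, where replicate 3 was far below the others, and at 108, 125 and 117 in SDF1, a change of -1.40 ± 0.33 (SE, adjusted p = 0.0057) that was -1.92 without replicate 3 and not called with only the compared groups in the fit. GINS1 and PRIM1 went against the others. GINS1 rose from 114, 117 and 149 to 229, 216 and 237, by 0.85 ± 0.11 (SE, adjusted p = 0.000118). PRIM1 was at 657, 835 and 462 and 1021, 1024 and 1013, a change of 0.69 ± 0.17 (SE, adjusted p = 0.00618) that was not called with only the compared groups in the fit and was 0.46 without DF1 replicate 3.

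DF1 replicate 3 decided several values. PCNA was at 3349.7, 3529 and 1388 in DF1 and 1795, 1768 and 1851 in SDF1, so that this library alone lay below SDF1. Its change was -0.49 ± 0.28 (SE, adjusted p = 0.168), not called, and -0.93, called lower, without that library. RPA2 was at 251, 275 and 662 in DF1 against 238, 259 and 276 in SDF1, and its change went from -0.47 to -0.03, called in neither. CDT1, RFC4 and TYMS, not called over all libraries at 0.05, 0.11 and -0.06, were called with the opposite sign without it, at -0.24, -0.16 and 0.17. CDC6 was not called over all libraries (0.12) and was higher without it (0.37). TK1 was not called over all libraries (-0.20) and was called lower without it (-0.11). UHRF1 was called in neither, at -0.21 with it and 0.07 without it. RRM1, CDC45, POLA1 and GINS1 kept their direction and call, at -0.82, -0.41, -0.33 and 0.97.

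Mitosis markers did not follow the licensing genes in this comparison. Of 14, 7 were called higher and none lower in SDF1, with a median of 0.36, against 27.5% of rows called higher. Without DF1 replicate 3 these were 11 and none, against 39.8% of rows. PLK1, a mitotic kinase, rose by 0.71 ± 0.06, and MKI67 was at 2817, 2395 and 3019 in DF1 and 2953, 2788 and 2693 in SDF1, not called (0.04 ± 0.09, adjusted p = 0.738). Of 25 other replication genes, 4 were called higher and 8 lower, and of 17 other nucleotide genes 2 and 5, against 27.5% and 20.4% of rows. Leaving out DF1 replicate 3 gave 9 and 13, and 5 and 8, against 39.8% and 34.1% of rows. IMPDH2, which makes guanine nucleotides, changed by -1.56 ± 0.14. GMNN, the inhibitor of CDT1, changed by -0.56 ± 0.06. Both were called lower. Skeletal muscle markers summed to 1018, 903.2 and 2176 in the DF1 libraries, with replicate 3 the highest, and to 172.5 to 179.8 in SDF1, with 9 to 10 and 7 to 10 of 15 at 0. Nearly all of both sums was MYH15, and the other 14 markers summed to 2.764 to 10.97 in DF1 and 4.97 to 5.46 in SDF1. Endothelial markers summed to 1502, 1460 and 6499 in DF1 and to 3779 to 3926 in SDF1, so that DF1 replicate 3 lay above SDF1 and the other DF1 libraries below it. ERG made up 3705 to 3857 of the SDF1 sum. MYH15 and ERG were named after their values were seen. The 12 fibroblast markers summed to 66368, 74117 and 156550 in DF1 and to 174700 to 180300 in SDF1, with 10 called higher and 1 lower. The part of these markers in the results was not tested.

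**Figure D4:**
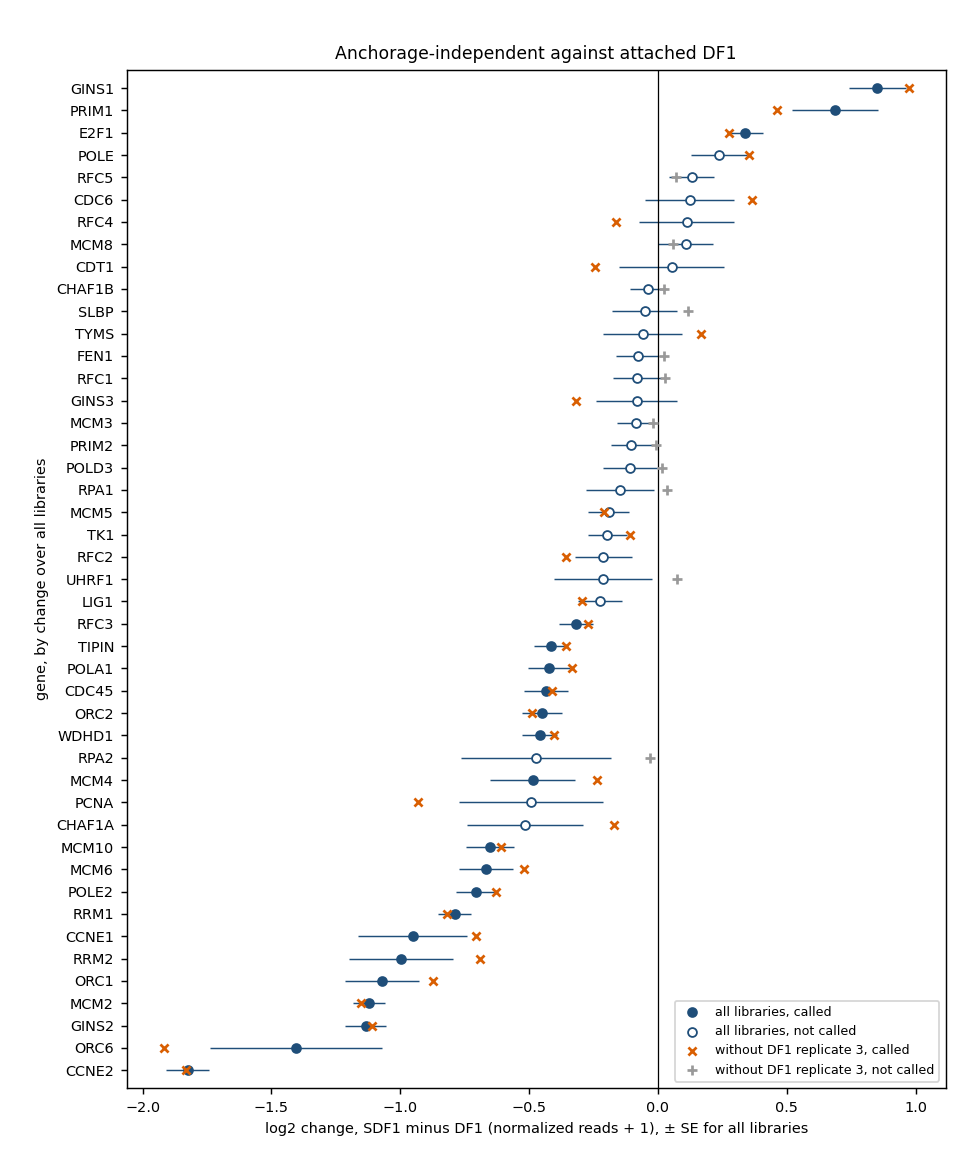
Changes of the 45 genes in SDF1 against DF1, as the difference of mean log2(normalized reads + 1), with 3 libraries per group. Circles with bars of 1 SE use all libraries (filled where called), and crosses leave out DF1 replicate 3 (orange where called). CCNE2, ORC6, GINS2, MCM2 and ORC1 lie farthest to the left, GINS1 and PRIM1 farthest to the right, and PCNA, CDT1 and RFC4 shift to the left without that library.

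FAT was compared with CF4, the attached line of the same breed label, both in the second set. Nearly the whole replication program was lower in FAT: 40 of 45 genes were called lower and 3 higher, where 28.8% and 45.4% of the 12861 rows tested were. The median change was -3.53 against 0.40 over all rows, and relative to that median it was -3.93, or -4.33 after quantile normalization. Without FAT replicate 3, 40 were called lower and 4 higher, where 36.4% and 45.9% of rows were, with a median of -3.39 against 0.21 over all rows. The direction and call of 44 of the 45 genes were the same without that library, all but RPA2. All 10 licensing genes, all 8 fork genes and all 4 nucleotide supply genes were called lower, with medians of -3.96, -3.45 and -5.07, against -1.57 for polymerases and primase and -1.44 for the clamp and its loader.

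CDC6 was at 12.6, 8.71 and 12.2 normalized reads in FAT, which stood for 4, 3 and 8 reads, against 734, 731 and 633 in CF4. Over the pooled reads it was 61.1-fold lower (95% interval for counting error 37.0 to 109), with a log2 change of -5.86 ± 0.15 (SE, adjusted p = 1.70e-08). GINS2 had 1, 1 and 2 reads in FAT and was 127-fold lower (interval 49.4 to 464) than in CF4, with 377, 405 and 373 normalized reads. CCNE2 had 3, 1 and 4 reads in FAT and was 42.4-fold lower (interval 21.5 to 98.3). GINS1 and SLBP were 13.2-fold and 27.3-fold lower, from 5, 5 and 5 and from 4, 10 and 5 reads in FAT. These intervals cover counting error only.

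Genes with more reads in FAT fell as well. TYMS and CDC45 still rested on few reads, as 1 read stood for 3.16, 2.90 and 1.52 normalized reads in the 3 FAT libraries. RRM2 was at 37.9, 55.2 and 66.9 in FAT, a change of -5.54 ± 0.18 (SE, adjusted p = 3.72e-08). TYMS was at 22.1, 23.2 and 16.7, a change of -5.37 ± 0.14 (SE, adjusted p = 1.70e-08), and MCM3 at 63.2, 61.0 and 27.4, a change of -5.31 ± 0.28 (SE, adjusted p = 4.15e-07). No FAT library overlapped CF4 for these genes. MCM2 was at 104, 131 and 88.2 and CDT1 at 126, 107 and 113 in FAT, with changes of -3.92 and -3.17. TK1 was at 114, 78.4 and 66.9, UHRF1 at 329, 325 and 159.7 and CDC45 at 22.1, 29.0 and 28.9, with changes of -4.77, -3.73 and -3.60. PCNA and POLA1 fell by less than the median of the 45 genes. PCNA was at 964, 964 and 668 and changed by -1.54 ± 0.15 (SE, adjusted p = 1.66e-05), and POLA1 at 528, 566 and 725 and changed by -0.86 ± 0.13 (SE, adjusted p = 0.000296). E2F1 was at 351, 154 and 159.7 in FAT, with replicate 1 above the others, and changed by -2.87 ± 0.28 (SE, adjusted p = 1.81e-05).

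CCNE1 was higher in FAT. It was at 189.7, 224 and 219 in FAT, above every CF4 library and above every library of the other groups, and rose by 2.23 ± 0.18 (SE, adjusted p = 5.69e-06) over CF4. RFC1 was at 2374, 2264 and 1149.7 in FAT and 856, 915 and 889 in CF4, a rise of 1.05 ± 0.25 (SE, adjusted p = 0.00412) (1.39 without FAT replicate 3). POLD3, an accessory subunit of polymerase delta, was at 1167, 967 and 987 against 725, 744 and 727 and was called higher (0.50 ± 0.10, SE, adjusted p = 0.0016), a call lost with edgeR on recovered reads (0.19). RPA2 at 335, 276 and 227 and CHAF1A at 679.8, 752 and 388 were not called, with 0.14 ± 0.15 (SE, adjusted p = 0.415) and -0.41 ± 0.22 (SE, adjusted p = 0.122). Without FAT replicate 3, RPA2 was called higher (0.28), and without FAT replicate 2, CHAF1A was called lower (-0.59).

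All 14 mitosis markers were lower in FAT. So were 22 of 25 other replication genes and 11 of 12 other chromatin assembly genes, with 1 higher in each list. Over all rows, 28.8% were called lower and 45.4% higher. MKI67 was at 142, 78.4 and 135 in FAT, a change of -4.42 ± 0.21. CDKN1B, the inhibitor p27 of the cyclin E kinase, was at 3190.2, 2572 and 2797 in FAT and 176, 180.1 and 151 in CF4, a rise of 4.07 ± 0.12, and CDKN1A rose by 3.59 ± 0.31. The cell makeup differed at the same time. The sum of 13 adipocyte markers was 87890 to 357500 in FAT and 8478 to 11120 in CF4, that of 13 macrophage and leukocyte markers 13180 to 30500 and 184.4 to 210, and that of 11 endothelial markers 10190 to 40440 and 1728 to 1770. ERG, named after its values were seen, made up 1653 to 1695 of the endothelial sum in CF4, where the other endothelial markers summed to 74.6 to 87.8. Skeletal muscle markers summed to 26940 to 1171000 in FAT, with the highest in replicate 3, and to 151.7 to 199.8 in CF4, of which MYH15 made up 149.5 to 196.9. Erythroid markers summed to 1448 to 5622 and 3.691 to 4.826. No macrophage, endothelial or adipocyte marker was at 0 in FAT, while 5 to 6 of 13, 0 to 2 of 11 and 3 to 4 of 13 were at 0 in CF4. The part of these cell types in the fall of replication genes was not tested.

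**Figure D5:**
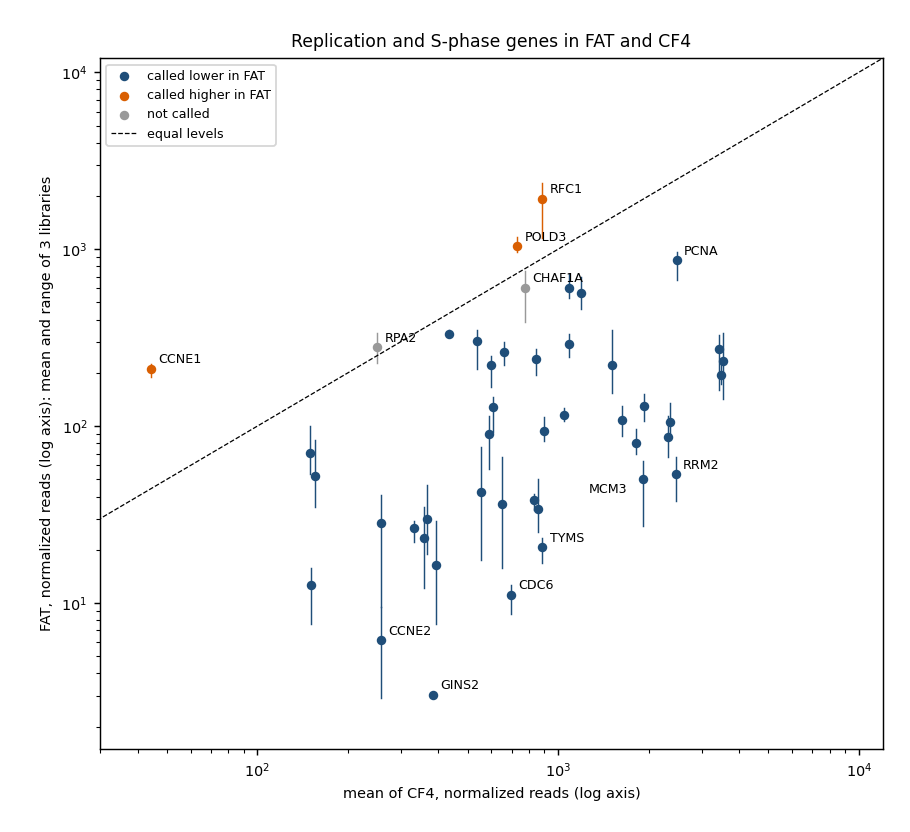
Level of each of the 45 genes in FAT (vertical, mean and range of 3 libraries) against its mean in CF4 (horizontal), in normalized reads on log axes, with a dashed line at equal levels. 40 genes lie below the line and are called lower in FAT, and CCNE1, RFC1 and POLD3 lie above it and are called higher.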

How the data were processed

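RNA was sequenced as paired-end reads from 27 libraries prepared, per the labels' protocols, with a NuGEN Trio kit. The submitters' processing notes name Bowtie2, RSEM, DESeq2 and galGal6 (a genome build), without roles. Whether counting used strand is not given there or in the other labels. The deposited signal values by gene symbol were reads divided by 1 factor per library, and all of them came out as whole reads within a tolerance of 0.01 when that factor was taken out. A deposited count table by Ensembl gene ID covered 12 libraries and was used for depth only (23.4 to 53.36 M reads), since its IDs could not be paired with symbols. The authors' deposited table gave log2 fold changes with p-values adjusted by the authors.

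From the signal values, log2(normalized reads + 1) was computed for rows with 1 or more in at least 3 libraries of a fit and tested with limma 3.58.1 in R 4.3.3 (empirical Bayes with trend and robust settings). P-values were adjusted by Benjamini-Hochberg over all rows, and calls were made under 0.05. SCF against CEF, CEF4 against CEF2 and the difference between lines were fitted on the 12 CEF and SCF libraries. Comparisons with CF were fitted on the CEF, SCF and CF libraries, SDF1 against DF1 together with CF2 and CF4, and FAT against CF4 together with CF2. Groups came from the labels. Same-numbered libraries did not deviate together, with correlations of -0.334 to 0.162, so numbers were not used as pairs in the reported fit. No pair of replicates agreed within sampling noise.

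Alternatives were a pseudocount of 0.1, no filter, a filter of 10, quantile normalization, a replicate block, other sets of libraries, edgeR 4.0.16 and DESeq2 1.42.0 on recovered reads, each library left out and a log2 change of at least 1. Fits were tested on simulated data. Tables and plots used Python 3.11.15, numpy 2.4.6, pandas 2.3.3 and matplotlib 3.10.9. The genes, gene lists and tests were chosen with earlier results of these data known. Values by library are given for 13 genes spread over the roles. The plan added up to 6 genes per comparison with the largest called change and no overlap, and up to 4 called genes against the majority. Most of these have values by library. For ORC6 and MCM8 in CF2 against CEF2, and RFC1 and MCM4 in SCF2 against CF2, only changes or calls are given. Up to 3 genes with the smallest p were eligible from each other list, with MKI67 and CDKN1A besides, and other genes are named after their values were seen. P-values measure the spread between replicates, which the series' design calls biological.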

Additional observations from a re-analysis of the deposited data

Results flagged for a closer look

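For 12 genes lines 2 and 4 differed in the step from primary to suspension growth, by limma's interaction term over all rows, at adjusted p-values of 0.000375 to 0.0381. Values are the log2 change in SCF4 against CEF4 minus that in SCF2 against CEF2, with 3 libraries per group.

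The difference was positive for 7 of the 45 genes, where it was called positive for 22.0% of all rows. It was 1.22 for CCNE1, 1.07 for TYMS, 0.92 for CCNE2, 0.88 for E2F1, 0.74 for MCM2, 0.61 for RFC2 and 0.49 for ORC6. CCNE1 fell in both lines and by less in line 4. TYMS was lower in CEF4 than in CEF2, which enters its difference. The CCNE2 call was lost without CEF2 replicate 1 (0.93) or 3 (0.84), CEF4 replicate 3 (0.66), SCF2 replicate 3 (0.78), or SCF4 replicate 1 (0.86) or 3 (0.92), and after quantile normalization (0.61). The E2F1 call was lost without CEF4 replicate 2 (0.72). The ORC6 call was lost without any one of 10 of the 12 libraries (0.42 to 0.51), all but CEF4 replicate 3 and SCF4 replicate 3, and after quantile normalization (0.37).

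The difference was negative for 5 of the 45, where it was called negative for 17.3% of all rows. It was -0.99 for GINS3, -0.72 for CHAF1B, -0.60 for RRM2, -0.53 for RFC1 and -0.46 for MCM6. CHAF1B and RRM2 were already higher in CEF4 than in CEF2, which enters their differences. The RRM2 and RFC1 calls were lost with all 27 libraries in one fit, as were those of CCNE2, ORC6 and MCM6. The MCM6 call was lost without any CEF2 replicate (-0.45, -0.44 and -0.48), without CEF4 replicate 2 (-0.46) or 3 (-0.36), SCF2 replicate 2 (-0.40), or SCF4 replicate 1 (-0.41) or 3 (-0.40), and after quantile normalization (-0.37).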

How the results depend on the processing

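Over 450 pairs of a gene and a comparison, direction and call were kept in 448 with a pseudocount of 0.1, 447 without a filter, 447 with a filter of 10, 424 with quantile normalization, 426 with edgeR and 428 with DESeq2 on recovered reads, and 395 with all 27 libraries in one fit. With only the groups compared, run for 405 pairs without the line difference, 394 were kept, 6 calls gained and 5 lost. The limma fits called 5080 to 9552 genes per comparison, edgeR 4141 to 9200 and DESeq2 4510 to 9889. The replicate block kept 446, with 40 genes higher and 2 lower in SCF2 against CEF2, 38 and 2 in SCF4 against CEF4, 6 and 5 for the line difference and 17 and 7 in SCF4 against CF4. With a log2 change of at least 1, 26 of the 45 genes were higher and 1 lower in SCF2 against CEF2, 27 and 1 in SCF4 against CEF4 (over all rows 1690 higher and 3382 lower, and 1991 and 2856, of 13001), 20 and 1 in CF2 against CEF2, 21 and 1 in CF4 against CEF4, 1 and 0 in SCF2 against CF2 and in SCF4 against CF4, 2 and 0 for the line difference, 0 and 0 in CEF4 against CEF2, and 0 and 5 in SDF1 against DF1. At that threshold 11.9% of all rows were higher and 29.0% lower in CF2 against CEF2, and 15.1% and 23.958% in CF4 against CEF4. These shares were 9.65% and 5.17% in SCF2 against CF2, and 6.29% and 5.65% in SCF4 against CF4. They were 15.4% and 8.49% for the line difference, 5.88% and 13.6% in CEF4 against CEF2, and 12.8% and 5.34% in SDF1 against DF1. In SCF against CF, the line difference and CEF4 against CEF2 the 45 genes had smaller shares than all rows in both directions. With all 27 libraries in one fit 1 was lower in SCF4 against CEF4, 2 in CF2 against CEF2 and 2 for the line difference, 5 were higher in CEF4 against CEF2, 10 higher and 2 lower in SCF2 against CF2, and 6 and 4 in SCF4 against CF4. Over all rows that fit called 29.1% lower in SCF4 against CEF4, 35.4% in CF2 against CEF2 and 10.9% for the line difference. It called 10.9% of rows higher in CEF4 against CEF2. In SCF2 against CF2 it called 14.9% higher and 9.83% lower, and in SCF4 against CF4 14.5% and 9.75%. Quantile normalization gave 2 lower in CF2 against CEF2, where 30.2% of rows were. Leaving out each library gave 1 to 2 lower in SCF4 against CEF4, 4 to 8 negative line differences, 7 to 13 higher in CEF4 against CEF2, 11 to 17 higher in SCF4 against CF4, and 3 to 6 higher and 17 to 27 lower in SDF1 against DF1. There the changes of CDT1 ranged from -0.24 to 0.29, of RFC4 from -0.16 to 0.27 and of TYMS from -0.18 to 0.17, with the reversal without DF1 replicate 3. The cause was not tested. A planned edgeR fit on the deposited counts was not run, because their IDs could not be paired with symbols. Depth limits FAT most, where GINS2 rested on 1 to 2 reads per library.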
